A study of Mus musculus with 19 samples.

Results

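Corneal crystallin enzymes are metabolic enzymes that the corneal epithelium makes in far larger amounts than its metabolism alone is thought to need. The 6 genes described here were taken by symbol from each of the 2 deposited expression tables, 1 for cornea and 1 for conjunctiva, each of which listed 24552 genes once repeated symbols were left out. They are Aldh3a1, Aldh1a1, Tkt, Ldha, Eno1 and Gapdh. The name is used here as a label for all 6, but by transcript level only Aldh3a1 and Tkt were highly abundant in cornea. Tkt ranked from place 15 to place 32 of all listed genes there, and the places of Aldh3a1 are given below. Aldh1a1, Ldha and Gapdh lay between place 681 and place 4852, and Eno1 was at or near 0 reads. Female C57BL/6 mice (C57BL/6J in the study's methods) had free access to food (ad libitum, AL) or were under calorie-restricted feeding (CR), and the sample titles carry the marks 6M and 50W without spelling them out. The study describes the restriction as lasting 4 months in middle-aged mice. Corneal epithelium was scraped from the eye and conjunctiva was excised, so cornea here means its epithelium. Of 19 libraries, 10 came from cornea, 5 per diet, and 9 from conjunctiva, of which 4 were AL and 5 CR. The study's methods describe more than 1 cohort of mice and do not say which cohort each library came from. The libraries are named below by diet and by the number in the title, such as AL 4 or CR 7.

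Crystallins were first defined as the abundant water-soluble proteins of the lens, and many of them are enzymes or are closely related to enzymes. In the cornea of mammals the place of such a protein is taken by aldehyde dehydrogenases, chiefly ALDH3A1 in the mouse, and by transketolase. ALDH3A1 absorbs ultraviolet light and oxidizes the aldehydes that arise when light and oxygen attack lipids. Lactate dehydrogenase A, enolase 1 and GAPDH are glycolytic enzymes whose proteins or close relatives serve as lens crystallins in various vertebrates.

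Counted reads ranged from 10354125 to 14681223 per cornea library and from 10726717 to 14433441 per conjunctiva library. Between 38.7% and 47.6% of listed genes had 0 reads in cornea libraries and between 33.6% and 40.1% had in conjunctiva libraries. The tissue labels were checked against marker genes. Krt12, the keratin of corneal epithelium, held 24587 to 28095 RPM (reads per 1000000 counted reads) in AL cornea and 15024 to 29639 in CR cornea, against 36.2 to 439 in conjunctiva. In AL cornea the 7 corneal epithelium markers summed to a mean of 51216 RPM, of which Krt12 held 26420. In AL conjunctiva the sum was 32184, of which Krt12 held 256, so the rest of that list was not higher in cornea. Summed conjunctival epithelium markers overlapped between the tissues, at 2180 to 5307 RPM in cornea and 2223 to 5626 in conjunctiva. Of the goblet cell markers, Muc5ac held 174 to 486 RPM in conjunctiva and at most 3.73 in cornea. Summed skeletal muscle markers held 983 to 10268 RPM in conjunctiva and 0.0761 to 5.86 in cornea, with Pgam2 at 0 in all 10 cornea libraries. In AL 1 of cornea, summed lacrimal gland markers reached 2586 RPM, against 4.73 to 79.0 in the other cornea libraries.

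Aldh3a1 was among the most abundant transcripts of the cornea, ranking from place 4 to place 7 of all listed genes. The gene lies on chromosome 11 of GRCm38.p6, from 61208510 to 61218418. Its normalized counts, which are read counts divided by the authors' size factor for each library, were 133841, 126618, 112618, 218571 and 132036 in AL 1 to AL 5. In CR cornea they were 129440 in CR 1, 212635 in CR 2, 219014 in CR 3, 171288 in CR 4 and 156841 in CR 7. A single AL library, AL 4, lay with the highest CR libraries, and a single CR library, CR 1, lay with the AL libraries, so the diets overlapped. The means were 144737 ± 42106 (SD, n = 5) under AL and 177844 ± 37856 (SD, n = 5) under CR. The log2 change, CR minus AL on the scale of log2(normalized count + 1), was 0.31 ± 0.18 (SE) with an adjusted p of 0.377 in limma's test across all genes. A gene was called where the adjusted p was under 0.05 and the fold change over 1.5. In cornea 0 of the 5 crystallin enzymes that could be tested were called, where 150 of 12278 genes tested, or 1.22%, were called. None of those 5 had an unadjusted p under 0.05, where 2219 of all genes had one, and 0 were called with limma voom on recovered reads.

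The Aldh3a1 result depended on library AL 4. Without it the change was 0.47 ± 0.14 (SE) with an adjusted p of 0.0465, still under the fold of 1.5. Weights that lowered the influence of atypical libraries gave 0.48 ± 0.14 (SE) and an adjusted p of 0.0467. Both settings moved many genes under that limit. An adjusted p under 0.05 was found for 188 of 12278 genes with all libraries, 770 of 12310 without AL 4 and 1186 of 12278 with the weights. Aldh3a1 also moved with the share of listed genes at 0 reads, which ran from 38.7% to 45.2% in AL cornea and from 39.9% to 47.6% in CR cornea. Over the 10 cornea libraries Pearson's r between that share and the log2 value of Aldh3a1 was 0.82 and Spearman's rho was 0.75, and r was 0.97 once the 2 libraries with the most extreme shares relative to the median were set aside. With the share as a covariate the change was -0.04 ± 0.14 (SE). Counted reads moved with Aldh3a1 as well, with r of 0.86 over the same libraries. The part of depth and of genes at 0 in the Aldh3a1 values was not tested beyond these fits.

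In conjunctiva Aldh3a1 ranked from place 11 to place 16. Its normalized counts were 36981, 29976, 29973 and 41744 in AL 1, AL 3, AL 4 and AL 5. Under CR they were 39896, 48858, 37234, 49215 and 57371 in CR 1 to CR 5. All 5 CR libraries lay above the AL mean, and 3 of them lay above the highest AL library. The means were 34669 ± 5759 (SD, n = 4) and 46515 ± 8071 (SD, n = 5). The log2 change of 0.42 ± 0.17 (SE) had an adjusted p of 0.408, so it was not called. In conjunctiva 0 of 5 crystallin enzymes tested were called, where 50 of 13929 genes, or 0.359%, were called. Aldh3a1 and Aldh1a1 were the 2 with an unadjusted p under 0.05, as were 1310 of all genes, and limma voom called 0 of the 5 too. The r between Aldh3a1 and the share of genes at 0 over the 9 conjunctiva libraries was 0.92, or 0.83 without the 2 farthest from the median, and with that share as a covariate the change was 0.22 ± 0.12 (SE).

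**Figure D1:**
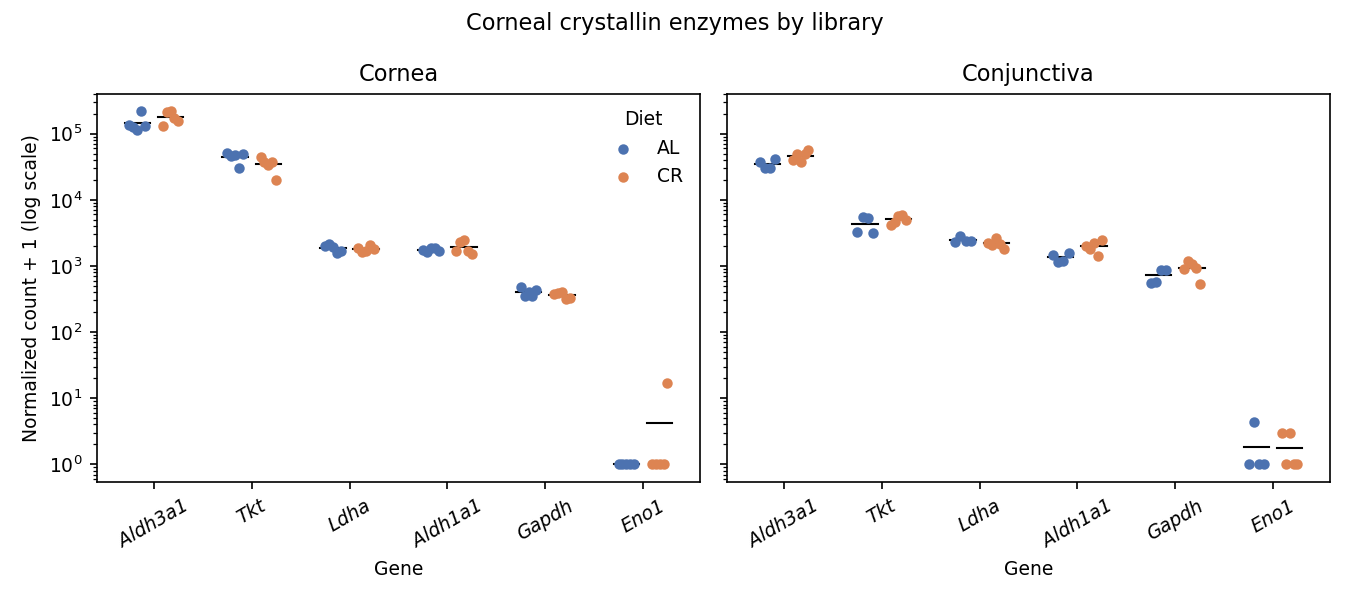
Normalized count + 1 on a log scale for the 6 corneal crystallin enzymes, 1 point per library, with AL in blue, CR in orange and a black bar at each group mean. Cornea is on the left and conjunctiva on the right. Aldh3a1 lies at 112618 or higher in every cornea library, Tkt is lower in every conjunctiva library than in any cornea library, and Eno1 lies at or near 0 in both tissues.

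Aldh1a1 lies on chromosome 19 beside its close relative Aldh1a7, the former at 20492583 to 20643463 and the latter at 20692953 to 20727556 in GRCm38.p6. The files hold no coordinates, and all positions given here were taken from RefSeq on that build. The 100 bases before 1 of the 2 annotated starts of Aldh1a1 and before that of Aldh1a7 are shown because the pair is so alike. They were 94.0% the same, and capitals mark the 6 bases that differ. The Aldh1a1 stretch is chr19:20601868-20601967 on the plus strand and the Aldh1a7 stretch is chr19:20727557-20727656 on the minus strand.
Aldh1a1: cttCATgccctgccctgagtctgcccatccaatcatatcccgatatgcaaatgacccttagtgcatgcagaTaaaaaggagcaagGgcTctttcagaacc
Aldh1a7: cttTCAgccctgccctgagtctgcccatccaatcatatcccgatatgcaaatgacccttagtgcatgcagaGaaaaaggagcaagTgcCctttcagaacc

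How far reads could be assigned to 1 gene was measured with every stretch, or window, of 75 bases, the read length, in a transcript. Of the 2284 windows in the longest coding transcript of Aldh1a1, 97.8% occurred in no other annotated gene, and all windows in its last 500 bases did. Aldh1a7 was much lower than Aldh1a1, with means of 80.5 ± 22.9 (SD, n = 5) in AL cornea and 99.1 ± 16.2 (SD, n = 5) in CR cornea.

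Aldh1a1, whose product oxidizes retinaldehyde and other aldehydes, was lower than Aldh3a1 by a wide margin in cornea. Its normalized counts in AL cornea were 1760, 1642, 1846, 1848 and 1652, and in CR cornea they were 1692 in CR 1, 2312 in CR 2, 2429 in CR 3, 1699 in CR 4 and 1488 in CR 7. The AL libraries were close together, and the CR libraries spread to both sides of them. The means were 1750 ± 100.2 (SD, n = 5) and 1924 ± 418 (SD, n = 5), with a log2 change of 0.11 ± 0.13 (SE) and an adjusted p of 0.681. The change was 0.021 without CR 3, 0.039 without CR 2 and 0.20 without CR 7. In conjunctiva the AL values were 1477, 1151, 1206 and 1551, and the CR values were 1985, 1775, 2250, 1431 and 2473. Of the 5 CR libraries, 4 lay above every AL library, and CR 4 lay among them. The conjunctiva means were 1346 ± 197 (SD, n = 4) and 1983 ± 406 (SD, n = 5). The log2 change of 0.54 ± 0.17 (SE) was the largest of the 5 enzymes tested in conjunctiva, and its adjusted p was 0.242.

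Tkt encodes transketolase, which links the pentose phosphate pathway, a source of NADPH, to glycolysis, and was the next most abundant crystallin enzyme in cornea. The gene lies on chromosome 14 of GRCm38.p6 from 30549131 to 30574724. Its normalized counts were 50443, 45988, 47202, 29930 and 49216 in AL 1 to AL 5. Under CR they were 44513 in CR 1, 37008 in CR 2, 33648 in CR 3, 36772 in CR 4 and 19769 in CR 7. All 5 CR libraries lay below the AL mean, and AL 4, the library highest in Aldh3a1 among AL, was the lowest AL library in Tkt. The means were 44556 ± 8357 (SD, n = 5) and 34342 ± 9073 (SD, n = 5), a log2 change of -0.40 ± 0.21 (SE) with an adjusted p of 0.333. Without CR 7 the change was -0.21 ± 0.14 (SE), without AL 4 it was -0.54 ± 0.18 (SE), and neither was called. In the same cornea libraries r between Tkt and the share of genes at 0 was -0.88, and with that share as a covariate the change was 0.02 ± 0.14 (SE). Tkt also moved with Krt12, with r of 0.84, and CR 7 was the lowest library in both. Summed conjunctival epithelium markers, all 5 of them above 0 in every cornea library, ran from 2180 to 3619 RPM in AL cornea and from 2655 to 5307 in CR cornea. AL 4 had the highest sum among AL libraries and CR 7 the highest among CR libraries, and the part of these markers in the Tkt values was not tested. In conjunctiva the same sum was 2560 to 5626 RPM under AL and 2223 to 5480 under CR, so the 2 tissues overlapped in it.

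In conjunctiva Tkt was 3305 in AL 1, 5511 in AL 3, 5246 in AL 4 and 3132 in AL 5. Under CR it was 4088, 4633, 5672, 5790 and 4991 in CR 1 to CR 5. The AL libraries split into a lower and a higher pair, and most CR libraries lay between or just above them. The log2 change was 0.26 ± 0.19 (SE) with an adjusted p of 0.698. It was 0.13 without AL 5, 0.15 without AL 1 and 0.40 without AL 3. The 250 bases before the Tkt start, chr14:30548881-30549130 on the plus strand of GRCm38.p6, are shown because Tkt had the highest ratio of cornea to conjunctiva among the 6 enzymes, given below. Capitals mark the only match to a core of the hypoxia response element, which is bound by hypoxia-inducible factors and was searched as ACGTG or GCGTG on both strands.
Tkt: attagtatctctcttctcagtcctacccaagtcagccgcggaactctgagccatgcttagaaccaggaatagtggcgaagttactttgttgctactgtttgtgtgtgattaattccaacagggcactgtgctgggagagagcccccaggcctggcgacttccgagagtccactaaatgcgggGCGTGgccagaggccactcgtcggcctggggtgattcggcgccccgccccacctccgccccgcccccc

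The ratio of Aldh3a1 to Tkt put the cornea libraries in a clear order. It was 2.65, 2.75, 2.39, 7.30 and 2.68 in AL 1 to AL 5, and 2.91, 5.75, 6.51, 4.66 and 7.93 in CR 1, CR 2, CR 3, CR 4 and CR 7. The libraries with a ratio under 3 were the 5 with the fewest genes at 0 reads, from 38.7% to 40.7%. Over the 10 cornea libraries r between the log2 values of Aldh3a1 and Tkt was -0.55, and it was -0.90 without the 2 libraries farthest from the median of Tkt. In conjunctiva the ratio was 5.44 to 13.3 under AL and 6.56 to 11.5 under CR. These ratios are within each library and so do not depend on the size factors.

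**Figure D2:**
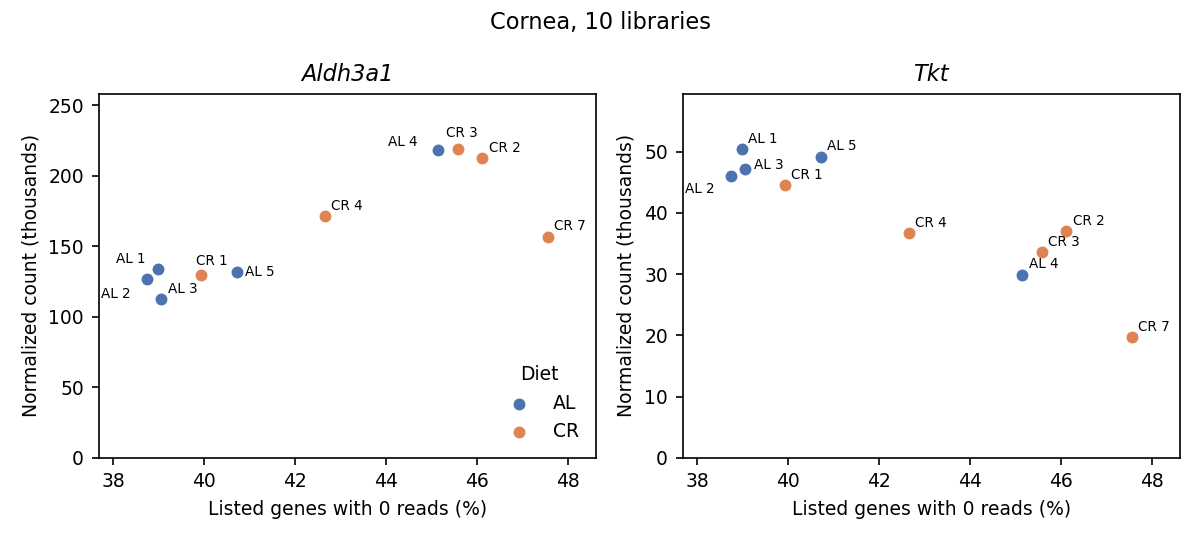
Normalized count, divided by 1000 on the axis, of Aldh3a1 (left) and Tkt (right) against the percentage of listed genes with 0 reads, 1 labelled point per cornea library, AL in blue and CR in orange. Aldh3a1 is higher and Tkt lower in the libraries with more genes at 0, and AL 4 sits with the CR libraries in both plots.

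Ldha, on chromosome 7 of GRCm38.p6 from 46842274 to 46855627, encodes the subunit that favours making lactate from pyruvate. Its normalized counts were 2003, 2138, 1924, 1544 and 1688 under AL and 1872, 1641, 1670, 2044 and 1805 under CR. Every CR library lay within the AL range. The means were 1859 ± 241 (SD, n = 5) and 1806 ± 163 (SD, n = 5), and the 95% confidence interval of the log2 change ran from -0.27 to 0.20. In conjunctiva the AL values were 2327, 2876, 2370 and 2388 and the CR values 2226, 2098, 2642, 2162 and 1780. Of the CR libraries, 4 of 5 lay below the lowest AL library and CR 3 did not. The log2 change there was -0.20 ± 0.14 (SE) with an adjusted p of 0.707, and it was -0.13 without AL 3 and -0.13 without CR 5. Ldha moved with the share of genes at 0 in both tissues, with r of -0.66 over 10 cornea libraries and -0.83 over 9 conjunctiva libraries. Ldhb, which encodes the other main lactate dehydrogenase subunit, was far lower in cornea, at 36.0 to 74.8 under AL and 33.7 to 78.0 under CR, and was 168 to 661 and 218 to 997 in conjunctiva.

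The Ldha promoter is shown because it was the only one of the crystallin enzymes' windows with the E-box CACGTG, the element that CLOCK and BMAL1 and the MYC family bind. The 250 bases before the start are chr7:46845554-46845803 on the plus strand of GRCm38.p6. Capitals mark matches to the cores ACGTG and GCGTG on either strand, and 2 of these stretches are the E-box itself.
Ldha: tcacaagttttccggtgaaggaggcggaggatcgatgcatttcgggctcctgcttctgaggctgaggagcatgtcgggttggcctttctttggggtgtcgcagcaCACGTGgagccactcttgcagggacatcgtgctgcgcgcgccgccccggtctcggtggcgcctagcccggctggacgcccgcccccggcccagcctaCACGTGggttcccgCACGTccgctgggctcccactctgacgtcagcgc

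Of the 6 enzymes, 5 had RefSeq promoter windows, 9 windows of 300 bases in all, and Aldh3a1 had none in the table used. The E-box was in 7.15% of all 32851 promoter windows. The hypoxia response element cores were in 43.8% of all windows and in each window of Tkt, Ldha, Eno1 and Gapdh, and in neither window of Aldh1a1. The core of the dioxin response element, TGCGTG, which contains the core GCGTG, was in 8.47% of all windows and in 1 window each of Ldha and Gapdh. The D-box TTACGTAA, the site of DBP and its relatives, was in 0.119% of all windows and in none of the 9. The TATA box, searched as TATAAA, was in 13.6% of all windows and in none of the 9.

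Gapdh, known for its high level in most tissues, was listed at a low level here. The gene lies on chromosome 6 of GRCm38.p6, from 125161852 to 125166467. It held 29.6 to 40.5 RPM in AL cornea and 26.8 to 36.4 in CR cornea, and its place among all genes ran from 3653 to 4852. The normalized counts were 477, 346, 402, 350 and 429 under AL and 373, 386, 405, 318 and 320 under CR, so the groups overlapped. The log2 change was -0.15 ± 0.14 (SE) with an adjusted p of 0.603, and it was -0.083 without AL 1. Most of the Gapdh transcript also occurs elsewhere in the genome. Of its 1346 windows of 75 bases, 19.7% occurred in no other annotated gene, and 121 other genes, 113 of them pseudogenes, shared at least 1 window. Of those pseudogenes 6 were listed, and together they held 5 to 68 reads in cornea libraries, against 311 to 535 for Gapdh itself. The tables listed 8 of the 121 sharing genes, and these held 368 to 760 reads in cornea libraries. Nearly all of those reads were listed for Peli2, which shared 21 windows, or 1.56% of those of Gapdh. A window of the coding sequence, bases 415 to 489 counted from the first base of the start codon, is shown because it occurs unchanged in 49 other annotated genes.
Gapdh: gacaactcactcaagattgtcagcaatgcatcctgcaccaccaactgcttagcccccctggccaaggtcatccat

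Where a read fits several places equally well, counting tools often leave it out, and how such reads were treated is not given in the sources used here. The part of shared sequence in the listed Gapdh level was not tested.

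In conjunctiva Gapdh was 555, 577, 866 and 863 under AL and 912, 1171, 1072, 930 and 525 under CR. Of the CR libraries, 4 lay above all AL libraries and CR 5 lay below all of them. The log2 change was 0.35 ± 0.22 (SE) with an adjusted p of 0.671, and it was 0.54 without CR 5. Gapdh moved there with the summed skeletal muscle markers, with r of 0.77 over the 9 libraries, and r was 0.42 without the 2 libraries farthest from the median of those markers. All 7 muscle markers were above 0 in every conjunctiva library. The summed markers ran from 983 to 4509 RPM under AL and from 1027 to 10268 under CR. The library AL 3 and the library CR 5 had the lowest sums. Eno3, the enolase of muscle, was 379 in CR 5, 404 in AL 3 and 5160 in CR 3, the library with the highest sum. The part of muscle in the Gapdh level was not tested, and in bulk tissue fewer cells of a type cannot be told apart from less RNA per cell.

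Eno1 was listed at 0 reads in 9 of 10 cornea libraries and held 17 reads in CR 7. A count of 0 allows up to 3 reads, which is 0.204 to 0.290 RPM in cornea libraries. In conjunctiva it held 3 reads in AL 3, 2 in CR 1 and 2 in CR 3, and 0 reads in the other 6 libraries. It did not pass the filter of a mean of 10 normalized counts in either tissue, so no change is given. Eno1 is found at 150236708 to 150248879 on chromosome 4 of GRCm38.p6. Of the 1953 windows of its transcript, 34.6% occurred in no other annotated gene, and 64.2% occurred in Eno1b, a gene of nearly the same coding sequence. The part of shared sequence in the 0 reads of Eno1 was not tested.

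Eno1b held reads in every library. Its normalized counts in AL cornea were 81.4, 127, 55.7, 235 and 82.4, with the high value in AL 4. In CR cornea they were 129, 207, 261, 169 and 133. The log2 change was 0.76 ± 0.33 (SE) with an adjusted p of 0.240. In conjunctiva Eno1b was 166 to 222 under AL and 131 to 295 under CR, with an adjusted p of 0.861. Of the other enolases, Eno2 was under the filter in cornea, and Eno3 was 1.77 to 30.6 under AL and 1.86 to 36.4 under CR in cornea. In the same tissue Aldh3a2, the fatty aldehyde dehydrogenase, was 138 ± 26.7 (SD, n = 5) under AL and 109 ± 38.0 (SD, n = 5) under CR, with an adjusted p of 0.437. In conjunctiva Aldh3a2 was 315 ± 48.8 (SD, n = 4) and 306 ± 74.8 (SD, n = 5). Gapdhs, the sperm form, held at most 1 read in any library.

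**Figure D3:**
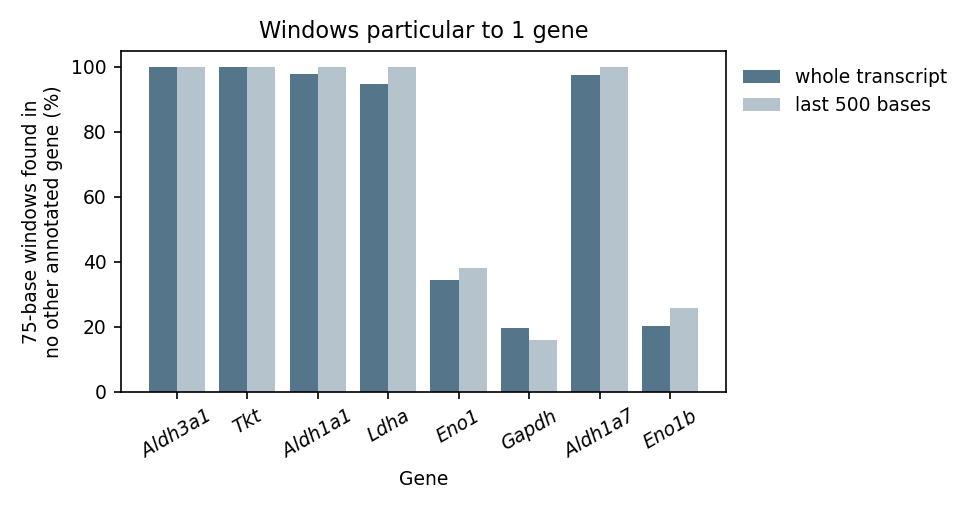
Percentage of 75-base windows of each transcript that occur in the transcripts of no other annotated gene, for the whole transcript (dark bars) and its last 500 bases (light bars). All windows of Aldh3a1 and Tkt are found in 1 gene only, while the values are 19.7% for Gapdh, 34.6% for Eno1 and 20.4% for Eno1b over the whole transcript.

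The order of the crystallin enzymes by level was nearly the same in all groups. In RPM per kilobase of exon, the AL cornea means were 6732 ± 1940 (SD, n = 5) for Aldh3a1 and 1192 ± 224 (SD, n = 5) for Tkt. They were 84.6 ± 10.8 (SD, n = 5) for Ldha, 63.0 ± 4.20 (SD, n = 5) for Aldh1a1 and 23.1 ± 3.11 (SD, n = 5) for Gapdh. Per kilobase, the ranges of neighbours in this order did not overlap in AL cornea. Not divided by length, Ldha at 133 to 183 RPM overlapped there with Aldh1a1 at 140 to 163. In CR cornea, Ldha at 74.8 to 93.7 overlapped with Aldh1a1 at 51.9 to 91.2, and without division by length Aldh1a1 came before Ldha. In conjunctiva the same order held by the means, but Tkt at 81.5 to 142 under AL overlapped with Ldha at 106 to 126, and so did Aldh1a1 at 39.9 to 54.3 with Gapdh at 32.0 to 49.4. Under CR all neighbours from Tkt down to Gapdh overlapped per kilobase in conjunctiva. Without division by length, Tkt did not overlap with Ldha in conjunctiva under either diet, nor did Aldh1a1 with Gapdh. The library kit is unsettled, so whether reads should be divided by length is unsettled too.

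Aldh3a1 and Tkt set the cornea apart from the conjunctiva. The 2 tables were normalized separately, so levels are set side by side in RPM, with no test. Excised conjunctiva held 983 to 10268 RPM of summed muscle markers and 1911 to 5007 of stromal markers. Scraped cornea held 0.0761 to 5.86 and 36.7 to 178, so the ratios compare unlike mixes of cells. The part of that mix in the ratios was not tested. Aldh3a1 held 9965 to 18820 RPM in AL cornea and 2490 to 3501 in AL conjunctiva, a ratio of means of 4.25. Tkt held 2577 to 4282 and 263 to 458, a ratio of 10.6. Krt12 showed a ratio of 103 in the same groups. Aldh1a1 was 1.32 times as high in AL cornea as in AL conjunctiva, and Ldha and Gapdh were lower in cornea, at ratios of 0.762 and 0.572. Under CR the ratios were 4.22 for Aldh3a1, 7.48 for Tkt and 0.424 for Gapdh. Those of Aldh1a1 and Ldha were 1.06 and 0.897 under CR, and the ranges of the 2 tissues overlapped there. Together the 6 enzymes held 1.67 ± 0.29% (SD, n = 5) of counted reads in AL cornea and 1.88 ± 0.36% (SD, n = 5) in CR cornea. In conjunctiva the share was 0.368 ± 0.040% (SD, n = 4) and 0.448 ± 0.035% (SD, n = 5). The ranges of the 2 diets overlapped in both tissues.

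The change under CR was also compared between tissues. The standard errors treat the 2 tissues as independent, though the study took several tissues from each mouse. A title number was shared by 8 pairs of cornea and conjunctiva libraries, and the labels do not say whether a pair came from 1 mouse. For Tkt the cornea change minus the conjunctiva change was -0.66 ± 0.28 (SE) on the log2 scale, with a 95% confidence interval from -1.23 to -0.10 and an adjusted p of 0.615. For Gapdh the difference was -0.50 ± 0.26 (SE), with an adjusted p of 0.687. For Aldh1a1 it was -0.43 ± 0.21 (SE), with an adjusted p of 0.668. For Aldh3a1 it was -0.11 ± 0.24 (SE), and for Ldha it was 0.16 ± 0.18 (SE). Of these 5 differences, 0 had an adjusted p under 0.05, where 2 of 11929 genes, or 0.0168%, had one and 892 had an unadjusted p under 0.05. Tkt and Aldh1a1 were the 2 of the 5 with an unadjusted p under 0.05. A fit of the difference within each pair of shared title gave 0 of all genes an adjusted p under 0.05, and 669 an unadjusted p under 0.05.

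**Figure D4:**
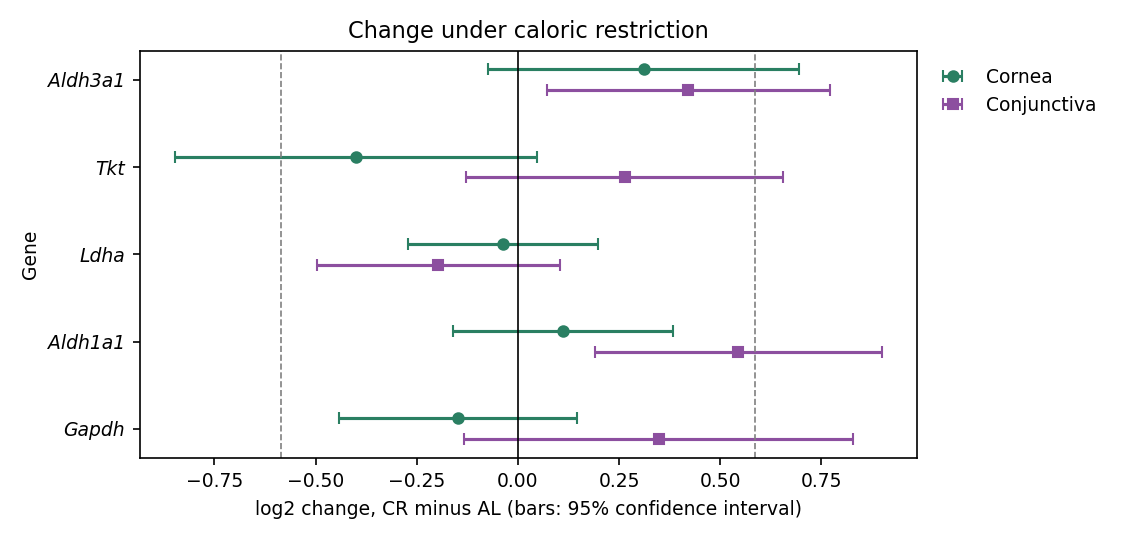
Change under CR on the log2 scale (CR minus AL) for the 5 crystallin enzymes tested, with 95% confidence intervals as bars, cornea as green circles and conjunctiva as purple squares. The solid line marks no change and the dashed lines a fold of 1.5. The intervals of Aldh3a1 and Aldh1a1 in conjunctiva lie above 0 and all others include 0, before adjustment for the number of genes tested.

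Libraries of the same group differed by more than counting noise. In AL cornea the coefficient of variation of Aldh3a1 was 29.1%, where counting alone would give 0.264%, and for Gapdh the values were 13.8% and 5.09%. In AL conjunctiva the coefficient of variation of Tkt was 29.2%, where counting alone would give 1.52%. Intervals that include 0 do not show that a level stayed the same. In cornea the 95% intervals of the log2 change reached 0.70 for Aldh3a1 and -0.85 for Tkt, both past the fold of 1.5.

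By log2 value over the 10 cornea libraries, the genes most like each enzyme were found among the 12277 other genes tested, as a description. The libraries share the differences in depth and in genes at 0 given above. For Aldh3a1 they were Dsc3, a desmosomal cadherin of basal epithelium, with r of 0.98, Mta2 with 0.96 and Atad1 with 0.96. For Tkt they were AI467606, Gadd45gip1 and Tm2d3, with r of 0.98 each. For Aldh1a1 they were Kctd13, Smad3 and Osmr, with r of 0.93, 0.92 and 0.91, and r for Kctd13 was 0.58 without the 2 libraries farthest from the median of Aldh1a1. For Ldha they were Zc3h12a, Wdyhv1 and March3, with r of 0.93, 0.90 and 0.90. For Gapdh they were Pcdhb22, Timm21 and Phf11b, with r of 0.89, 0.89 and 0.87. None of these 15 genes was called in cornea, beside 1.22% of all genes tested. They were picked for moving with enzymes that were themselves not called, so this count tells nothing further about diet.

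Of the 21 other genes in the glycolysis list, 18 were tested in cornea, where 9 had a higher and 9 a lower mean log2 value under CR. There 2 were called, beside 1.22% of all genes, and 9 had an unadjusted p under 0.05, beside 18.1% of all genes. Hk1, the hexokinase of most tissues, fell from 421 ± 27.4 (SD, n = 5) to 243 ± 44.3 (SD, n = 5), a log2 change of -0.81 with an adjusted p of 0.0103. Pfkfb3, which makes the activator of phosphofructokinase, rose from 356 ± 18.3 (SD, n = 5) to 565 ± 88.9 (SD, n = 5), a log2 change of 0.65 with an adjusted p of 0.0163. The median log2 change of the list was 0.04, beside -0.03 for all genes tested. The call of Pfkfb3 was lost without AL 1, AL 5 or CR 3, where its change was at least 0.56, and when the share of genes at 0 entered the fit. In conjunctiva 15 of 20 had a higher mean log2 value under CR, beside 48.0% of all genes. None of the 20 was called, beside 0.359% of all genes, 3 had an unadjusted p under 0.05, beside 9.40%, and limma voom called 0. The 2 with the smallest p there were Aldoc, an aldolase, and Hk2, a hexokinase of muscle and growing cells. Aldoc was 51.8 ± 12.8 (SD, n = 4) under AL and 147 (104.7 to 280.5, n = 5) under CR, with an adjusted p of 0.0767. Hk2 was 2015 ± 348 (SD, n = 4) and 2992 ± 556 (SD, n = 5), with an adjusted p of 0.212. The list's median was 0.20 there, beside -0.02 for all genes. The list includes Eno3, the enolase of muscle. Summed skeletal muscle markers in conjunctiva had means of 3555 RPM under AL and 4942 under CR, with ranges that overlapped. The part of muscle in the changes of this list was not tested.

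Of the 10 other genes in the pentose phosphate list, 8 were tested in each tissue and 0 were called in either, beside 1.22% of all genes in cornea and 0.359% in conjunctiva. An unadjusted p under 0.05 was found for 2 in cornea, beside 18.1% of all genes, and for 1 in conjunctiva, beside 9.40%. Pgls, the lactonase of the oxidative branch, was 942 ± 87.1 (SD, n = 5) under AL and 723 ± 97.6 (SD, n = 5) under CR, with an adjusted p of 0.119. Pgd, the next enzyme of that branch, was 1681 ± 306 (SD, n = 5) and 1260 ± 142 (SD, n = 5), with an adjusted p of 0.135. In conjunctiva G6pdx and Pgd had the smallest p, with log2 changes of 0.35 and 0.34 and adjusted p of 0.421 and 0.588. Limma voom called 0 in both tissues. The Tkt relatives Tktl1 and Tktl2 held at most 7 and 0 reads in any library.

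In the rest of the aldehyde dehydrogenase family 14 of 19 genes were tested in cornea and 1 was called, beside 1.22% of all genes. In cornea 3 had an unadjusted p under 0.05, beside 18.1% of all genes. Aldh3b2, a membrane-bound enzyme that oxidizes fatty aldehydes, fell from 1603 ± 230 (SD, n = 5) to 970 ± 281 (SD, n = 5), a log2 change of -0.75 with an adjusted p of 0.0263. The call was lost without AL 1, AL 2, AL 3, AL 5, CR 2 or CR 3, and when the share of genes at 0 entered the fit. Over all 10 cornea libraries left out in turn its change ran from -0.91 to -0.66. In conjunctiva 0 of 17 were called, beside 0.359% of all genes, 4 had an unadjusted p under 0.05, beside 9.40%, and limma voom called 0. Aldh1a2, a retinaldehyde dehydrogenase of stromal cells, was 109 ± 40.3 (SD, n = 4) under AL and 57.3 ± 21.7 (SD, n = 5) under CR, with an adjusted p of 0.387. Summed stromal markers were 3261 to 5007 RPM under AL conjunctiva and 1911 to 3841 under CR, and their part in this value was not tested. Aldh5a1, the succinate semialdehyde dehydrogenase, was 93.0 ± 10.1 (SD, n = 4) and 146 ± 34.1 (SD, n = 5), with an adjusted p of 0.389. Of 7 other genes with crystallin or crystallin-like products, 6 were tested in each tissue and 0 were called. An unadjusted p under 0.05 was found for 3 in cornea, beside 18.1% of all genes, and for 1 in conjunctiva, beside 9.40%. The 3 in cornea were Cryab, a small heat shock protein and lens crystallin, Cryl1, and Gsn, which encodes the actin-severing protein gelsolin. They were named after their values were seen. In cornea Cryab was 2081 ± 323 (SD, n = 5) under AL and 2818 ± 175 (SD, n = 5) under CR, with a log2 change of 0.45 and an adjusted p of 0.0495, under the fold of 1.5. In conjunctiva the log2 change of Cryab was 0.09 ± 0.64 (SE). Gsn had log2 changes of -0.34 ± 0.14 (SE) in cornea and -0.65 ± 0.19 (SE) in conjunctiva, with adjusted p of 0.205 and 0.212. The part of stroma in the conjunctiva values of Gsn was not tested.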

How the data were processed

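The authors deposited 1 table per tissue of log2 values, which are log2(count / DESeq2 size factor + 1) from poly(A) RNA libraries of cornea and conjunctiva. The submitters' processing notes name GRCm39 and the study's methods name mm10, and the notes and methods name different library kits, so build and kit stay unsettled. Values were turned back into whole reads, and 100% of values came out whole within 0.01 read. Of 24557 listed features in each table, 5 that repeated a symbol were left out.

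CR and AL were compared within each tissue with limma 3.58.1 in R 4.3.3 on log2(normalized count + 1) (trend and robust eBayes), keeping genes whose mean normalized count was 10 or more, with Benjamini-Hochberg adjustment across all genes. The difference between tissues was the difference of the 2 changes, with the tissues treated as independent. Limma voom on recovered reads was an alternative. No 2 replicates agreed within counting noise. Fits were tested on simulated data. Windows of 75 bases, the read length in the study's methods, came from GENCODE M21 transcripts (GRCm38), and promoters from RefSeq GRCm38.p6. Libraries were grouped by GEO's labels. The study counts its samples as mice, and the labels number them without naming animals, so p-values measure the spread between these samples. Limits for 0 reads cover counting error only. Named genes were the 6 enzymes, near relatives, called genes of 3 related lists (or the 2 of smallest p) and the 3 genes most like each enzyme. The enzymes and lists were chosen with earlier results of these data known. Columns of all 19 libraries were used.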

Additional observations from a re-analysis of the deposited data

Results flagged for a closer look

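Single libraries stood apart from the rest of their group in 6 of 48 groups examined, over the enzymes and their near relatives. Chance alone flags about 1 in 20 groups, but that rate cannot be set against this count. The rule always flags 1 library with reads where the rest of its group is at 0. In cornea AL 4 had an Aldh3a1 normalized count of 218571, where the next highest AL library had 133841. The same library had a Tkt normalized count of 29930, where the next lowest AL library had 45988, and 45.2% of listed genes at 0 reads, the highest share among AL cornea libraries. In conjunctiva AL 3 had an Ldha normalized count of 2876, where the next highest AL library had 2388.

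The other values were a few reads beside libraries at 0. Eno1 had a normalized count of 15.8 in cornea CR 7 and 3.37 in conjunctiva AL 3. Eno2 had a normalized count of 5.46 in cornea AL 3.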

How the results depend on the processing

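None of the 5 enzymes tested was called under any of 21 alternatives in cornea or 20 in conjunctiva (other pseudocounts, filters and scalings, voom, library weights, a replicate block, the share of genes at 0 as covariate, each library left out). Among values of the enzymes, lists, shares and places, 705 kept direction and call, 5 changed sign and 26 moved, and the near relatives that changed sign are given below. With the covariate the cornea changes of Aldh3a1, Tkt and Ldha were -0.043, 0.022 and 0.12, that of Ldhb was 0.0095, and in conjunctiva those of Aldh3a2 and Eno1b were 0.19 and -0.072; the cause was not tested. Ldhb in cornea was 0.016 under quantile normalization, and Aldh3a2 in conjunctiva was 0.014 with library weights. With each library left out, changes ran in cornea from -0.10 to 0.016 for Ldha and -0.23 to 0.076 for Ldhb. In conjunctiva they ran from -0.17 to 0.046 for Aldh3a2, -0.15 to 0.53 for Eno2, -0.073 to 1.04 for Eno3 and -0.013 to 0.64 for Ldhb. The tissue difference of Aldh3a1 ran from -0.20 to 0.049.

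In cornea the glycolysis median was -0.077 with no filter and -0.077 with a filter at 50, and ran from -0.018 to 0.13 with a library left out, while genes called higher numbered 2 with weights, 0 with the covariate and 0 to 2 with a library left out. In conjunctiva weights called 1 glycolysis gene higher, and the median was 0.43 with the covariate. Aldehyde dehydrogenases called lower in cornea numbered 0 with the covariate and 0 to 1 with a library left out, and the median ran from -0.15 to 0.13. Without Rn45s the 6 enzymes held 0.491% of reads in CR conjunctiva. Not divided by length, Aldh1a1 took place 3 and Ldha place 4 in CR cornea.

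The labels do not say whether the title numbers pair the AL and CR libraries of a tissue. Same-numbered deviations correlated at 0.288, -0.161, -0.168 and -0.297 in cornea and from -0.062 to 0.053 in conjunctiva. Libraries of unlike number were not compared, so these values cannot decide it. With the replicate block 0 glycolysis genes were called higher and 0 lower in cornea and 0 aldehyde dehydrogenases lower, so the calls of Pfkfb3, Hk1 and Aldh3b2 were lost, and the changes of Aldh3a1 and Tkt in cornea were 0.33 and -0.17. All calls in cornea numbered 150, against 52 with the block, 62 with the covariate, 705 with weights, 100 with voom and 53 to 536 with a library left out (536 without AL 4). In conjunctiva they numbered 50, against 12 with the block, 149 with weights and 26 to 127 with a library left out. Scaling to RPM moved the median change of all conjunctiva genes to -0.10 and the split of calls from 31 higher and 19 lower to 22 and 24. At this depth Eno1 was too near 0 reads to compare.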
